A study of Drosophila melanogaster with 6 samples.

Results

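Ucrh, RpLP1, mim, CG42336 and CG5976 are the 5 named genes whose array probes responded most unequally when HB10 cells were shifted to the cool. They carry 11 of the 32162 probes of the array, 3 for Ucrh and 2 for each of the other 4 genes. The genes were chosen from the comparison of 14 °C with 24 °C itself, as those with the largest range between the log2 fold changes of their own probes. That comparison is therefore only described for these genes, and where probes are counted past a threshold the count is a description and not a test. HB10 is a Drosophila melanogaster line established from dissociated embryos that expressed activated Ras85D.V12 from a UAS transgene under Act5C-GAL4, which drives expression throughout the body, and the cells of both groups carry these transgenes. All dishes were first kept at 24 °C for 36 h. The group called 14 °C was then moved to 14 °C for 24 h, whereas the group called 24 °C stayed at 24 °C for the same 24 h, and total RNA was isolated from 3 cultures of each group, described as biological replicates. All of them came from 1 line.

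A gene expression array reads a gene only through short probes, and each probe sees only the transcripts that contain its own stretch. Where a gene makes several transcripts that differ by start site, splicing or 3′ end, probes in different stretches can follow different transcripts. A probe can also hybridize with RNA of another gene that is similar or overlaps. Ucrh and RpLP1 stand for the main energy and protein production machineries of a cell. Ucrh encodes a small subunit of complex III of the mitochondrial respiratory chain, which passes electrons from ubiquinol to cytochrome c, and RpLP1 encodes an acidic protein of the lateral stalk of the large ribosomal subunit, which recruits translation factors. The I-BAR protein encoded by mim, the fly counterpart of missing-in-metastasis, bends membranes and connects them with the actin cytoskeleton. CG5976 has the symbol isoQC in RefSeq and encodes a glutaminyl cyclase, an enzyme that turns glutamine at the start of a protein into pyroglutamate. The role of CG42336 is not stated here.

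The probes differed in the transcript that the array design assigns to them. For 3 genes, each probe carries a transcript identifier of its own. The Ucrh probes A_09_P223645, A_09_P048521 and A_09_P187840 carry FBtr0333873, FBtr0301785 and FBtr0301784, the RpLP1 probes A_09_P150000 and A_09_P043441 carry FBtr0331932 and FBtr0078056, and the mim probes A_09_P000311 and A_09_P000316 carry FBtr0302578 and FBtr0113470. For the other 2 genes, both probes carry 1 identifier, which is FBtr0303157 for CG42336 and FBtr0078200 for CG5976. An identifier names the transcript a probe was designed for and does not show which other transcripts it detects. In the Release 6 plus ISO1 MT gene table, no other gene overlaps Ucrh or RpLP1, whereas the span of mim overlaps 9 other genes, that of CG42336 overlaps CG18336 and that of CG5976 overlaps CG5969. CG42336 replaced the earlier gene models CG13210 and CG13211 in that table. The name Ucrh stands for more than 1 gene there and was taken as CG41623 (UQCR-11), because the study lists CG3560, the other main candidate, separately.

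Each of the 6 arrays was hybridized with Cy3-labelled cRNA of 1 culture and had 43602 gene spots, with 57.7 to 59.4% of them well above background and no saturated spot. Replicate 1 of both groups lay on slide 1 and replicates 2 and 3 of both groups on slide 2. Replicate 2 at 14 °C gave the dimmest array, with a 75th percentile of the signal of 923 against 1394 to 1684.5 on the others. Of 32162 probes, 18789 were tested, all 11 described here among them. Few markers had a named probe that could check the likeness of the line to adult muscle precursors, which the study describes. The probes of twi, which the study calls strongly expressed in these precursors, and of ct were well above background on all 6 arrays. Of 7 hemocyte markers 2 had a named probe, and that of srp, the main hemocyte GATA factor, was above background on 0 arrays whereas that of ush was above background on all 6. Of the 3 probes of wupA, a gene of differentiated muscle, 1 was above background on 5 arrays, 1 on 1 and 1 on 0. The study hybridized a set amount of cRNA per array, and the signals were then normalized. Neither the number of cells nor the RNA per cell can therefore be read from these values.

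In the cool, 6 of the 11 probes gave a higher, 2 an almost equal and 3 a lower signal than at 24 °C. All values below are log2 signals after background correction and quantile normalization, and a log2 fold change is the mean at 14 °C minus the mean at 24 °C. Each gene thus had at least 1 probe that was higher at 14 °C, next to a probe that was either lower or about equal. The distance between them was 1.09 to 1.70 on the log2 scale. The directions hold for quantile normalization. When all arrays were scaled to one median, which moved the median of all tested probes up by 0.41, all probes but A_09_P035131 of CG5976 were above 0. Relative to the median of all probes, the 2 almost equal probes, A_09_P043441 of RpLP1 and A_09_P000316 of mim, then stood 0.41 and 0.25 higher. The groups of 3 arrays did not overlap for 9 of the 11 probes, a property that 40.6% of all tested probes had. Since the probes were selected on this comparison, nothing can be read from that difference.

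Ucrh showed the widest distance between probes, with both weakly hybridizing probes higher and the bright probe lower in the cool. On the 3 arrays at 14 °C, probe A_09_P223645 gave 9.25, 9.52 and 9.43, against 7.98, 8.11 and 8.38 at 24 °C. The lowest array at 14 °C was well above the highest at 24 °C. The probe was 2.37-fold higher, a log2 fold change of 1.25 (SE 0.12, n = 3 arrays per group). This ranked at place 53 among the rises of 18789 tested probes. Probe A_09_P048521, which is spotted 2 times on each array, gave 8.57, 8.38 and 8.60 at 14 °C against 7.60, 7.52 and 7.46 at 24 °C. Its groups did not overlap either, and it was higher by 0.99 (SE 0.09), or 1.99-fold. Its signal was the faintest of all, down to 2.98 times the local background in replicate 1 at 24 °C.

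Probe A_09_P187840 of Ucrh went the other way. It gave 14.48, 14.65 and 14.36 at 14 °C against 15.00, 14.92 and 14.93 at 24 °C. The highest array at 14 °C remained below the lowest at 24 °C, which amounts to a log2 fold change of -0.45 (SE 0.09) and a level 1.37-fold lower. This spot is bright, so that on 5 arrays the scanner software took its value from the scan at low sensitivity and scaled it up, whereas on replicate 2 at 14 °C it was read at high sensitivity. Without that array, the log2 fold change was -0.53. The probe stood at 0.31 when all arrays were scaled to one median and at -0.27 and -0.30 with the other linear scalings, which in each case is 0.10 below the median of all tested probes.

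RpLP1 was the gene with the largest rise of a single probe. Probe A_09_P150000 gave 10.22, 10.10 and 10.17 at 14 °C and 8.85, 8.78 and 8.71 at 24 °C. The arrays within a group differed little, with SDs of 0.06 and 0.07, and the groups were far apart. The probe was 2.61-fold higher, with a log2 fold change of 1.39 (SE 0.08), at place 31 among the rises of all tested probes. Probe A_09_P043441, which is spotted 2 times, gave 16.93, 17.04 and 16.69 at 14 °C and 17.05, 16.88 and 16.71 at 24 °C. Here the groups overlapped, replicate 3 was the lowest in both, and the difference was 0.01 (SE 0.12). With the 3 linear scalings it was 0.81, 0.23 and 0.20, in each case 0.41 above the median of all tested probes. This probe was read at low sensitivity on all 6 arrays, and none of its spots was saturated.

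In the case of mim, 1 probe was higher in the cool and the other had overlapping groups. Probe A_09_P000311 gave 9.40, 9.41 and 9.69 at 14 °C against 8.15, 8.32 and 8.28 at 24 °C. Every array at 14 °C was above every array at 24 °C, and the log2 fold change of 1.25 (SE 0.10, 2.38-fold) took place 52, next to that of the Ucrh probe A_09_P223645. Probe A_09_P000316 gave 11.06, 11.19 and 11.52 at 14 °C against 11.19, 11.23 and 11.29 at 24 °C. Replicate 3 at 14 °C was the highest and replicate 1 at 14 °C the lowest of the 6, so that the groups overlapped around a difference of 0.02 (SE 0.12). With linear scaling this probe stood 0.25 above the median of all tested probes. Among the genes that overlap mim, CheB42b and CheB42c had named probes, which were tested. No probe could be named for the others, nor for CG18336 and CG5969, so those genes were not analysed. The probe of CheB42b had a log2 fold change of 0.00 (SE 0.07) and those of CheB42c had -0.30 (SE 0.10) and -0.32 (SE 0.11), with adjusted p-values of 0.979, 0.0572 and 0.0591 in limma.

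The probes of CG42336 moved in opposite directions although they share a transcript identifier. Probe A_09_P144230 gave 8.70, 8.69 and 8.76 at 14 °C and 7.80, 7.95 and 8.11 at 24 °C. It was thus higher on all arrays at 14 °C, by 0.76 (SE 0.09), or 1.69-fold. Probe A_09_P006426 gave 11.64, 11.55 and 11.38 at 14 °C and 11.96, 12.10 and 11.88 at 24 °C. It was lower on all arrays at 14 °C, by a log2 fold change of -0.45 (SE 0.10), which is 1.37-fold lower. With all arrays scaled to one median it stood at 0.22, and with each linear scaling 0.18 below the median of all tested probes.

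CG5976 also had a probe on each side. Probe A_09_P109975 gave 15.60, 16.06 and 15.86 at 14 °C against 15.14, 15.14 and 15.13 at 24 °C. The 24 °C arrays were nearly equal, with an SD of 0.01, whereas those at 14 °C spread with an SD of 0.23. The probe was 1.63-fold higher, by 0.70 (SE 0.11) on the log2 scale. Probe A_09_P035131, the median of 2 spots, gave 8.01, 7.82 and 8.13 at 14 °C against 8.33, 8.37 and 8.42 at 24 °C. All arrays at 14 °C were lower, 1.31-fold on average (log2 fold change -0.39, SE 0.09). CG5976 differed from the other 4 genes in that the brighter probe was the one that was higher in the cool.

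Of the 11 probes 3, A_09_P223645, A_09_P150000 and A_09_P000311, reached the rule of the study for transcripts higher in the cool (CoolUp), an adjusted p under 0.01 in limma and a change of at least 2-fold, as did 0.591% of all tested probes. None reached the rule for lower transcripts (CoolDown), which 0.341% of all tested probes did. These shares are given as background, because the probes had been chosen for these changes. With A_09_P048521 the fold change of 1.99 lay just below the limit. These counts depend on quantile normalization. With each array scaled by a single factor in its place, 0 probes of the whole array passed the rule in limma, with 2334 to 4084 probes at an unadjusted p under 0.05 against 6793 with quantile normalization.

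The distance between 2 probes of a gene can be formed on each array on its own, where any factor that applies to a whole array cancels. With the mean at 24 °C set to 0, the difference between A_09_P223645 and A_09_P187840 of Ucrh was 1.56, 1.67 and 1.86 on the arrays at 14 °C and -0.22, -0.02 and 0.25 at 24 °C. The mean at 14 °C was 1.70 ± 0.15 (SD, n = 3), a 3.25-fold shift of 1 probe against the other. The difference between A_09_P048521 and A_09_P187840 was 1.45 ± 0.26 (SD, n = 3), whereas the 2 Ucrh probes that were higher in the cool differed from each other by only 0.25 ± 0.23, with overlapping groups. Ucrh thus had 2 probes with similar changes and 1 that differed from both.

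For the other genes the distance was smaller. For RpLP1 it was 1.38, 1.16 and 1.59 at 14 °C, with a mean of 1.38 ± 0.21 (SD, n = 3), against -0.10, 0.00 and 0.10 at 24 °C. The distance for mim was the most uniform, with 1.33, 1.20 and 1.15 at 14 °C (mean 1.23 ± 0.09) against -0.05, 0.08 and -0.03 at 24 °C. CG42336 gave 1.08, 1.16 and 1.40 at 14 °C (mean 1.21 ± 0.17) against -0.14, -0.12 and 0.26 at 24 °C. CG5976 gave the widest spread, with 0.83, 1.48 and 0.97 at 14 °C (mean 1.09 ± 0.34) against 0.05, 0.01 and -0.06 at 24 °C. In the order Ucrh, RpLP1, mim, CG42336 and CG5976, each neighbouring pair of means differed by less than the sum of their SDs. In all 5 genes the arrays at 14 °C did not overlap those at 24 °C, and lay closer to each other than to any array at 24 °C. The genes were chosen for this distance on the same arrays, and the share of all genes with such a separation is not given here. Nothing is read from it.

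Both slides held both temperatures, and the direction was the same on each. The genes were chosen for this distance over the arrays of both slides, so the agreement is a description and not a separate check. On slide 1, with 1 array per temperature, the distance was 1.79 for Ucrh, 1.48 for RpLP1, 1.38 for mim, 1.22 for CG42336 and 0.78 for CG5976. On slide 2, with 2 arrays per temperature, it was 1.66, 1.33, 1.15, 1.21 and 1.25 in the same order of genes. The CG5976 value thus rested more on slide 2. The values changed by more with the way the arrays were brought to a common scale. Where each array was multiplied by 1 factor instead of quantile normalization, the distance became 1.34 for Ucrh, 1.05 for RpLP1, 1.01 for mim, 0.86 for CG42336 and 1.60 for CG5976, which then was the largest of the 5 values. The genes whose probe with the higher change was the dimmer of the pair, 4 of 5, came closer together and CG5976, where it was the brighter, moved apart.

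The probes were read at very different brightness. The probes that were higher in the cool lay at 129.5 to 1332 scanner units in Ucrh, RpLP1, mim and CG42336, and the other probes of these 4 genes at 1498 to 143720. In CG5976 the probe that was higher lay at 35766 to 63458 and the other at 146 to 314.25. Brightness depends on the probe as well as on its transcript, so these ranges do not rank transcripts. The part of brightness in the distances was not tested.

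Among the 653 named genes with at least 2 tested probes, the median range between the probes of a gene was 0.14 and the 90th percentile 0.41. CG5976 with 1.09 was the last gene inside the choice. The next gene outside was lncRNA:CR31044, a noncoding RNA gene, with a range of 1.08 (probes at 1.27 and 0.20), followed by Pabp2, which encodes the nuclear poly(A) binding protein, with 1.06 (1.14 and 0.08). The step between the last gene inside and the first outside was thus smaller than the spread of CG5976 between arrays. Over the whole array, diffSplice from limma called 74 of 3201 units with several tested probes (2.31%) as having unequal probes. Unnamed probes were grouped there by the identifier of the array design. Differences between identifiers of an unnamed gene could therefore not appear. Among the 653 named genes it called 17, with the 5 genes chosen for such differences among them. These counts are given as background only. Only 12.6% of the probes could be named here, and genes without a name were not ranked.

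The other genes of complex III were taken by their membership of the complex. Of 11 such genes, 8 had a named probe, and all 8 were tested. No probe could be named for RFeSP, CG17856 and CG30354, so these were not analysed here. The median log2 fold change of these 8 was -0.33, against 0.00 for all tested genes, and 7 of 8 were below 0. Here and below, all tested genes means 14749 units of 1 probe each. Probes without a name, 28103 on the array, were grouped for this by the identifier of the array design. An unnamed gene with several identifiers was thus counted more than once in the shares of all tested genes. This direction depended on quantile normalization, because with linear scaling the median of the 8 genes lay 0.01 above that of all tested probes and 4 of 8 lay below it. Past an adjusted p under 0.01 in limma, 2 of 8 fell and 0 rose, as did 5.87% and 6.56% of all tested genes, and 0 of 8 passed with a change of at least 2-fold, as 0.617% of all tested genes did in the higher and 0.339% in the lower direction. The core subunit genes UQCR-C2 (CG4169) and UQCR-C1 (CG3731) fell, by 0.50 (SE 0.08, adjusted p 0.00243) and 0.40 (SE 0.08, adjusted p 0.00654) on the log2 scale. The second UQCR-C2 probe fell by 0.64 (SE 0.10, adjusted p 0.00203), next to the first.

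The remaining complex III genes did not pass. For ox, which encodes one of the smallest subunits, the log2 fold change was -0.56 (SE 0.16, adjusted p 0.033 in limma), and for UQCR-6.4 (CG14482) it was -0.47 (SE 0.13, adjusted p 0.0277). The values were -0.26 for Cyt-c1 (CG4769), which carries the haem of cytochrome c1, -0.27 for UQCR-Q (CG7580), -0.23 for UQCR-14 (CG3560) and 0.11 for mt:Cyt-b, the only subunit gene in the mitochondrial genome. UQCR-Q had a second probe on the other side of 0, at 0.14 (SE 0.10). These 8 genes ranged from -0.56 to 0.11, and beside them the Ucrh probes stood at -0.45, 0.99 and 1.25. Since those probes were chosen for lying far apart, nothing is read from which of them falls in the range. With the replicate number as a block, UQCR-6.4 and ox also passed (adjusted p 0.00157 and 0.00282), which made 4 of 8. The count was 0 with linear scaling, and UQCR-C2 and UQCR-C1 then lay 0.17 and 0.08 below the median of all tested probes. Leaving out replicate 2 at 14 °C gave a count of 4, and leaving out replicate 1 at 14 °C or any 1 of the 3 arrays at 24 °C gave 0.

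The wider list of 84 oxidative phosphorylation genes curated by the study, without Ucrh, had a median of -0.31, with 77 genes below and 7 above 0. In limma, 19 of 84 fell past an adjusted p under 0.01 and 0 rose, as did 5.87% and 6.56% of all tested genes. With the 2-fold limit 0 passed in either direction, as 0.339% of all tested genes did in the lower and 0.617% in the higher direction. The largest fall was that of Cyt-c-p, the electron carrier downstream of complex III, by 0.94 (SE 0.09, adjusted p 0.000174 in limma). Next, ND-AGGG (CG40002), a subunit of complex I, fell by 0.83 (SE 0.10, adjusted p 0.000433). SdhA, the flavoprotein of complex II, fell by 0.81 (SE 0.10, adjusted p 0.0007). A second tested probe gave -0.40 (SE 0.10, adjusted p 0.0186) for SdhA and -0.78 (SE 0.09, adjusted p 0.00053) for ND-AGGG. The 3 highest values did not pass and belonged to mt:ND3 with 1.05 (SE 0.37, adjusted p 0.0667), mt:ND1 with 0.35 (SE 0.17) and Cox10 (CG5037) with 0.21 (SE 0.09). With the replicate number as a block, 33 genes passed on the lower side and mt:ND3 on the upper side (adjusted p 0.000397). With linear scaling the median of the list lay 0.02 above that of all tested probes and 0 genes passed, while Cyt-c-p, ND-AGGG and SdhA still lay 0.64, 0.66 and 0.50 below it. The count of lower genes was 9 and 29 without replicate 1 or 2 at 14 °C, and 6, 7 and 9 without replicates 1, 2 and 3 at 24 °C. The list also holds 8 of the 8 complex III genes above.

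The genes of the cytoplasmic ribosome had a median close to 0 with quantile normalization. Of 77 genes on the list of the study without RpLP1, 0 rose and 0 fell past an adjusted p under 0.01 in limma. Among all tested genes 6.56% rose and 5.87% fell at that rule. The median of the list was 0.01. With linear scaling the median lay 0.39 above that of all tested probes, and only 1 of 77 genes lay below the latter. The RpLP1 probe A_09_P043441 then lay 0.41 above the median of all tested probes. The values ran from -0.21 for RpS14b, -0.17 for RpL15 and -0.17 for RpS9 up to 0.31 for RpL6, 0.35 for RpL37a and 0.41 for RpL7-like, the last 2 with adjusted p-values of 0.0235 and 0.0127. With the replicate number as a block these 2 genes passed (0.00863 and 0.00703). RpLP2, the partner of RpLP1 in the stalk, had 0.01 (SE 0.09). The RpLP1 probes, chosen for their unequal changes, stood at 0.01 and 1.39. RpLP0, the base of the stalk, was not analysed here.

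Among genes that act with I-BAR proteins at the membrane, 3 of 25 could be analysed. IRSp53, the other I-BAR gene of the fly, rose by 0.83 (SE 0.09, adjusted p 0.000262 in limma), or 1.78-fold, by its representative probe, whereas its second tested probe gave 0.20 (SE 0.08, adjusted p 0.105). The groups of the first probe were 8.72 ± 0.11 at 14 °C and 7.89 ± 0.06 at 24 °C (SD, n = 3). HSPC300, a subunit of the SCAR complex that switches on actin branching, had 0.27 (SE 0.08, adjusted p 0.0402), and Sra-1, another subunit, had 0.09 (SE 0.08). Thus 1 of 3 genes rose, where 6.56% of all tested genes did, and under linear scaling 0 did, IRSp53 then lying 0.71 above the median of all tested probes. A partner for CG5976, the glutaminyl cyclase gene QC, was not analysed here.

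For the probe of each gene with the largest change, the named genes with the most similar course over the 6 arrays were sought by the root mean square difference of the log2 values after subtraction of each probe's mean, over 1976 other named genes. The Ucrh probe A_09_P223645 was nearest to mim (0.15) and Pabp2 (0.15). The mim probe A_09_P000311 was nearest to CAH1 (0.11), a carbonic anhydrase gene, and Pabp2 (0.14), and RpLP1 was nearest to Cpr47Eb (0.10), a cuticle protein gene, and lncRNA:CR31044 (0.10). CG42336 was nearest to CG12605 (0.08) and CG2972 (0.09), and CG5976 to blow (0.07), which acts in myoblast fusion, and mgl (0.10), a lipoprotein receptor gene of the LDL receptor family. Those near the 3 probes with the largest rises had log2 fold changes of 1.14 to 1.27, and those near the other 2 had 0.63 to 0.72. Each match is to 1 probe of the named gene. The 5 tested probes of blow ran from 0.07 to 0.72, the matched one being the highest. The likeness rests on the same 6 arrays as the choice of the genes and mostly follows the size of the change, so it is no further evidence.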

How the data were processed

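The authors deposited scanner files with spot intensity on a linear scale and a table of processed values per probe, log2 by comparison with the scanner files (r = 0.999 of fold changes over tested probes). The deposited files also hold yes or no flags of the scanner software, Agilent Feature Extraction 10.7.3.1 per the file headers. Median spot intensities were corrected with normexp (offset 50) against the median local background, quantile-normalized without control and outlier spots, and summarized as the median over repeated spots. The study's methods name the same steps with surrogate variables, for which the first residual component stood in as an alternative. A probe was tested if well above background (at least 50% of its spots) on at least 2 of 3 arrays of 1 group. For 24 more probes all spots were flagged on an array and they were left out. limma 3.58.1 in R 4.3.3 (lmFit and eBayes, two-sided, Benjamini-Hochberg over 18789 probes) gave fold changes and SEs. Listed genes stood under the tested probe of highest mean signal. P-values measure the spread between 3 cultures of 1 line per group, and this number limits the precision.

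The 5 genes and the lists were chosen with earlier results of these data known. By the rule for names, all 11 probes and all complex III and stalk genes with a named tested probe are given. So are the 3 highest and lowest of the longer lists, the 2 nearest profiles per gene and the next gene outside the choice. Pabp2 was also named beside it, after its value was seen. Names came from the study's annotation (2801 probes), shared transcript identifiers (898) and RefSeq accessions (360). The array design refers to genome build dm3, so coordinates of Release 6 were not printed. Alternatives covered the background correction, scaling, deposited values, spot averaging, blocks, each slide alone and each array left out. Same-numbered replicates of both temperatures deviated together (r = 0.20, 0.30 and 0.39 across probes, each over 0.1), so the numbers can be read as pairs on the basis of the labels and this check. The reported SEs, p-values and counts come from the fit without this block, and the blocked value stands beside a list result where it changed a call. The steps were tested on simulated data with known changes.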

Additional observations from a re-analysis of the deposited data

How the results depend on the processing

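All 5 distances between probes kept their direction under all 19 alternatives (95 values), and 25 of these values moved by more than the spread between arrays. The genes were chosen for these distances, so the kept direction is only a description. Averaging repeated spots, the blocks and the first residual component cannot change a distance here. The 3 linear scalings give 1 and the same distance, so the alternatives are not all separate checks. With the scanner software's background-corrected signal the distances were 2.17 for Ucrh, 1.64 for RpLP1, 1.76 for mim, 1.75 for CG42336 and 1.35 for CG5976. The 3 linear scalings, to the median of all spots, to the median of spots above background and to the 75th percentile, gave 1.34, 1.05, 1.01, 0.86 and 1.60 in this order of genes. The distance of mim was 1.40 without background correction, 1.34 with a normexp offset of 16, 1.34 with the deposited values and 1.38 within slide 1, and that of CG5976 was 0.78 within slide 1. Leaving out 1 array gave 1.59 to 1.82 for Ucrh, 1.27 to 1.49 for RpLP1, 1.18 to 1.27 for mim, 1.12 to 1.35 for CG42336 and 0.90 to 1.22 for CG5976. The cause of these shifts was not tested.

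Of 209 values of single probes, 47 moved by more than the spread and 9 had another sign than reported, and the 3 probes in the 2-fold call reversed under none of the 19 alternatives. Averaging repeated spots, the blocks and the first residual component cannot change these values either. The linear scalings shift the median of all tested probes, by 0.41 for all spots, -0.17 for spots above background and -0.20 for the 75th percentile. Relative to that median, the lower probes then stood at -0.10 for Ucrh, 0.41 for RpLP1, 0.25 for mim, -0.18 for CG42336 and -0.51 for CG5976, and the upper ones at 1.24, 1.45, 1.26, 0.68 and 1.08.

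The count of called probes, 175, became 647 with the scanner software's signal, 0 with each of the 3 linear scalings and 2237 without a minimum fold. Without a minimum fold, 2 complex III genes, 19 oxidative phosphorylation genes and 1 actin gene were called. At that rule, 0 lower complex III genes and 7 lower oxidative phosphorylation genes passed with the scanner software's signal, where 1 actin gene exceeded 2-fold. An offset of 16 left 1 complex III gene. Each linear scaling left 0 complex III, 0 oxidative phosphorylation and 0 actin genes. The replicate block gave 4 lower complex III genes, 33 lower and 1 higher oxidative phosphorylation genes (the last also at least 2-fold) and 2 higher ribosome genes, and changed no other call in the lists. The first residual component gave 4, 32 and 2 for the lower complex III, lower oxidative phosphorylation and higher ribosome genes. An adjusted p under 0.05 gave 5, 46 and 2, and 2 higher actin genes, and any tested probe in place of 1 gave 1 higher ribosome gene. With 1 array left out, the lower genes numbered 0 to 4 in complex III and 6 to 29 in oxidative phosphorylation, 0 to 1 higher and 0 to 1 lower oxidative phosphorylation genes reached 2-fold, 0 to 1 passed as higher without a minimum fold, and 0 to 1 higher ribosome genes passed. The faintest probe lay at 2.98 times its background, which limits the precision of its change.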
